A study of Mus musculus with 2 samples.

Results

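Cycling CD8 T cells were 359 of the 5022 tumor-infiltrating immune cells (TIIs) in the data, 260 of 2392 cells in the library labelled WT and 99 of 2630 cells in the library labelled KO. They were selected on measured values, as unique molecular identifiers (UMIs, which count RNA molecules). A cell was taken when it held a sum of at least 3 UMIs over *Cd3d*, *Cd3e* and *Cd3g*, at least 2 of *Cd8a* and *Cd8b1*, 0 of *Foxp3*, at least 3 of *Mki67*, *Top2a* and *Birc5*, and fewer than 5 of the myeloid genes *Csf1r*, *C1qa*, *C1qb*, *C1qc* and *Cd14*. A CD8 T cell below is any cell that met these criteria apart from the one on *Mki67*, *Top2a* and *Birc5*, which gave 671 cells in the library labelled WT and 624 in the library labelled KO. A noncycling CD8 T cell is one of them with 0 UMIs of those 3 genes (252 and 422 cells).

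The study asked how loss of *Maoa*, the gene of monoamine oxidase A, alters immune cells in a tumor. scRNAseq was performed on TIIs of wild-type mice and of *Maoa* knock-out mice that carried B16-OVA tumors, a mouse melanoma line with the model antigen ovalbumin, collected at day 14. The *Maoa* KO mice carry a hypomorphic *Maoa* allele in every cell, made on a 129S background and backcrossed to C57BL/6J, and the methods give female mice of 8 to 12 weeks unless otherwise indicated. For each genotype 10 tumors were combined, live leukocytes were sorted as DAPI-CD45.2+ cells, and 1 library was made, so no test between genotypes was possible, and the 95% intervals given here cover counting error only.

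CD8 T cells are the cytotoxic lymphocytes that kill tumor cells through granzymes and perforin after their receptor meets antigen on MHC class I. Antigen makes them leave quiescence and divide, passing through S phase, when DNA and histones are made, and then through G2 and mitosis, when cyclin B, the Aurora and Polo kinases and the kinesins build and pull apart the spindle. In tumors, dividing CD8 T cells are often found among cells that carry inhibitory checkpoint receptors such as PD-1, TIM-3 and LAG-3.

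The cycling cells were deep. Their median was 18740.5 UMIs and 3634.5 genes per cell in the library labelled WT and 19844 UMIs and 3656 genes in the library labelled KO, against 7160.5 and 5086 UMIs in noncycling CD8 T cells. The sums over the cycling cells held 5408752 and 2003049 UMIs. Median mitochondrial shares were 1.502% and 1.724%. No barcode sequence was shared by cycling cells of the 2 libraries, while 13 were shared among all cells. *Maoa* itself, on chromosome X of GRCm38 from 16619698 to 16687818, had 0 UMIs in the cycling cells of either library, and 7 and 15 UMIs in all cells labelled WT and KO. The targeted gene thus did not bear out the labels, and every direction between the libraries rests on them. At least 1 UMI of a Y-linked gene was found in 86.2% and 86.9% of the cycling cells and *Xist* had 0 UMIs in them, which goes against the methods' statement on female mice in both libraries.

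The genes of the selection were present by construction, and their values are a description. *Cd8b1*, a chain of the CD8 coreceptor, was present in 260 of 260 and 99 of 99 cells, with medians of 16 and 12 UMIs, and *Cd8a* in 257 and 97 cells. The CD3 genes, which encode the signalling chains of the T cell receptor, had a median of 53 UMIs per cell in both libraries. *Cd4*, the helper coreceptor, which the selection did not use, had a UMI in 12 and 8 cells. *Mki67*, which encodes the proliferation antigen Ki-67, had a UMI in 199 and 77 cells. *Top2a*, the topoisomerase that untangles chromosomes, had one in 227 and 91 cells, and *Birc5*, which encodes survivin of the chromosomal passenger complex, in 232 and 88 cells.

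Most cells lay well above the threshold of 3 UMIs. The 3 cycling genes had a median of 17 UMIs per cell, up to 62, in the library labelled WT and of 18, up to 53, in the library labelled KO. Just inside the threshold, with 3 UMIs, were 23 and 8 cells, and just outside it, with 2 UMIs, were 37 and 21 CD8 T cells. More than 5 UMIs were found in 202 and 81 cells.

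RNA of other cell types was present in most cycling cells. The 16 macrophage and monocyte markers summed to 570.2 and 678.5 CPM (UMIs per 1000000 UMIs summed over the cells of a class) in cycling cells, below the 742.7 and 881.8 CPM of noncycling CD8 T cells. All 16 had at least 1 UMI. *Lyz2*, the lysozyme gene, was at 138.1 and 293.1 CPM, with 262 of its 587 UMIs labelled KO in 1 cell, and *Csf1r*, the receptor that macrophages depend on, at 4.44 and 6.49 CPM. The 11 dendritic cell markers summed to 1010 and 1543 CPM, led by *Cd74*, the invariant chain of MHC class II, at 443 and 763.8 CPM, and 1 cell of each library held 456 of 2396 and 474 of 1530 *Cd74* UMIs. The neutrophil genes *S100a8* and *S100a9* had 3 or more UMIs together in 86 cells labelled WT and in 2 labelled KO. At least 3 UMIs of any short set of myeloid, B cell, melanoma or neutrophil genes were found in 220 of 260 and 86 of 99 cycling cells, and the part of this RNA in the results was not tested. The B cell set reached 3 UMIs in 0 cycling cells and the melanoma set in 1. The summed levels of the full marker lists were 3.88 and 6.99 CPM for B cells, 3.51 and 5.99 CPM for melanoma, 108.3 and 61.4 CPM for neutrophils and 529.9 and 500.2 CPM for NK cells, whose markers CD8 T cells share in part.

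Many G2/M genes have a known promoter architecture in which CCAAT boxes, bound by NF-Y, lie upstream of a CHR element (TTTGAA), bound by the DREAM and MuvB complexes. S phase promoters are better known for E2F sites. These letters were searched in the listed S phase and G2/M genes that had a promoter sequence, and in all genes for comparison. So that the letters can be seen, 3 promoters are shown. They are those of the G2/M genes with the highest ratio of cycling to noncycling cells (the smaller of the 2 libraries). Only genes with both motifs in the 150 bases before the start site were considered for this. The sequences are from RefSeq (GRCm38.p6), read 5′ to 3′ along the gene, and the capitals mark CCAAT and TTTGAA on either strand (ATTGG and TTCAAA are their reverse complements). *Kif11* (chr19:37376232-37376381, plus strand) encodes the kinesin that pushes spindle poles apart, *Kif22* (chr7:127042421-127042570, minus strand) a kinesin that binds chromosome arms, and *Ckap2l* (chr2:129297213-129297362, minus strand) a spindle protein.
Kif11: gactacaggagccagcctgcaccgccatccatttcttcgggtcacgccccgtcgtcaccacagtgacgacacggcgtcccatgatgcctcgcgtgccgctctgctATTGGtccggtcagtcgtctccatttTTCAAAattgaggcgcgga
Kif22: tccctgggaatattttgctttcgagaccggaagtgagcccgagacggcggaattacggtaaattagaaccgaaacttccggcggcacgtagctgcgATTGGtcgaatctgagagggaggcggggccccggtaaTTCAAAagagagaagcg
Ckap2l: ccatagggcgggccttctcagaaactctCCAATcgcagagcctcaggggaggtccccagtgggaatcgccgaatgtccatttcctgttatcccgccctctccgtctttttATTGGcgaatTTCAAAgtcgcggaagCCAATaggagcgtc
In *Kif11* the CCAAT and TTTGAA matches began 45 and 19 bases before the start site, and in *Kif22* 54 and 17 bases before it, each on the strand opposite the gene. *Ckap2l* had 3 CCAAT matches and a TTTGAA match 30 bases before the start. Over the 250 bases before the start, 40% of 65 windows of 58 G2/M genes held TTTGAA, against 14% of 43 windows of 37 S phase genes, 11.2% of the windows of all genes in the deposited table and 16% of all 32851 windows. CCAAT was in 76.9% of G2/M and 60.5% of S phase windows against 34.4% and 33.8%, and both motifs in 36.9% of G2/M and 9.3% of S phase windows against 4.18% and 5.55%. The E2F letters TTCCCGC or TTGGCGC, searched on both strands, were in 37.2% of S phase windows and 10.8% of G2/M windows, against 8.9% and 5.62%. A match describes these letters and is no measure of binding.

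Cycling cells made up a larger share of the CD8 T cells in the library labelled WT. They were 260 of 671 CD8 T cells, or 38.75% (exact Clopper-Pearson interval 35.04 to 42.55%), in the library labelled WT and 99 of 624, or 15.9% (13.09 to 18.97%), in the library labelled KO. The CD8 T cells themselves were 28.05% (26.26 to 29.9%) and 23.7% (22.11 to 25.4%) of all cells. With 1 library per genotype the difference cannot be told apart from one between pools of tumors. Depth moved with it, since the median CD8 T cell held 12044 UMIs in the library labelled WT and 5819.5 in the library labelled KO. With every cell thinned to 4000 UMIs and all criteria applied again, so that the set of CD8 T cells changed, 155 of 665 and 52 of 483 were cycling, or 23.3% (20.14 to 26.71%) and 10.8% (8.15 to 13.88%). Of the CD8 T cells as deposited, 27 and 115 were too shallow for this depth. At 8000 UMIs, for which 201 and 413 CD8 T cells were too shallow, 220 of 507 and 82 of 215 were cycling, or 43.4% (39.03 to 47.83%) and 38.1% (31.62 to 44.99%), with overlapping intervals. That depth removed mostly noncycling cells, whose medians were 7160.5 and 5086 UMIs, while the 10th percentile of cycling cells was 11502.5 and 11707.4 UMIs. When cells with 3 or more UMIs of any other-cell set were left out, at the deposited depth, the shares were 16.3% and 3.79%. That filter counts UMIs at any depth, and cycling cells were deeper. It left out 220 of 260 and 86 of 99 cycling cells. Their macrophage and monocyte markers were at 570.2 and 678.5 CPM, below the 742.7 and 881.8 CPM of noncycling cells. The part of depth in this change was not tested.

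In the cells as deposited, most cycling cells had checkpoint receptor RNA. Of the CD8 T cells with at least 3 UMIs of *Pdcd1* (PD-1), *Lag3* (LAG-3) and *Havcr2* (TIM-3) together, 240 of 518, or 46.3% (41.97 to 50.73%), were cycling in the library labelled WT and 94 of 254, or 37.0% (31.06 to 43.27%), in the library labelled KO. Of those with 0 UMIs of the 3 genes, 11 of 108, or 10.2% (5.195 to 17.49%), and 3 of 304, or 0.987% (0.204 to 2.86%), were cycling, and these intervals were separate at this depth. With 1 or 2 UMIs it was 9 of 45, or 20% (9.58 to 34.6%), and 2 of 66, or 3.03% (0.369 to 10.52%). Cells without checkpoint UMIs were 16.1% of CD8 T cells in the library labelled WT and 48.7% in the library labelled KO, while cells with 3 or more were 77.2% and 40.7%. At 8000 UMIs per cell these shares were 4.93% and 15.35%, and 87.2% and 73.5%. The cells without checkpoint UMIs were also shallow, with medians of 5485.5 and 4892 UMIs against 14194.5 and 11816.5. At 4000 UMIs per cell the shares in the group with 3 or more were 23.7% (19.51 to 28.19%) and 16.7% (11.37 to 23.18%), and at 8000 UMIs 43.9% (39.21 to 48.66%) and 41.1% (33.38 to 49.23%). Within checkpoint-expressing cells the share was thus higher in the library labelled WT at all 3 depths. The intervals of the libraries overlapped at each depth, which does not show that the shares were equal. After thinning, the share did not follow the checkpoint UMIs in order. At 4000 UMIs it was 13.45% (7.885 to 20.91%) and 2.27% (0.742 to 5.224%) with 0 checkpoint UMIs, with separate intervals. With 1 or 2 it was 29.9% and 20%, above the values with 3 or more. At 8000 UMIs 9 of 25 (17.97 to 57.48%) and 4 of 33 (3.40 to 28.2%) cells with 0, with overlapping intervals, and 17 of 40 and 13 of 24 cells with 1 or 2, were cycling.

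**Figure D1:**
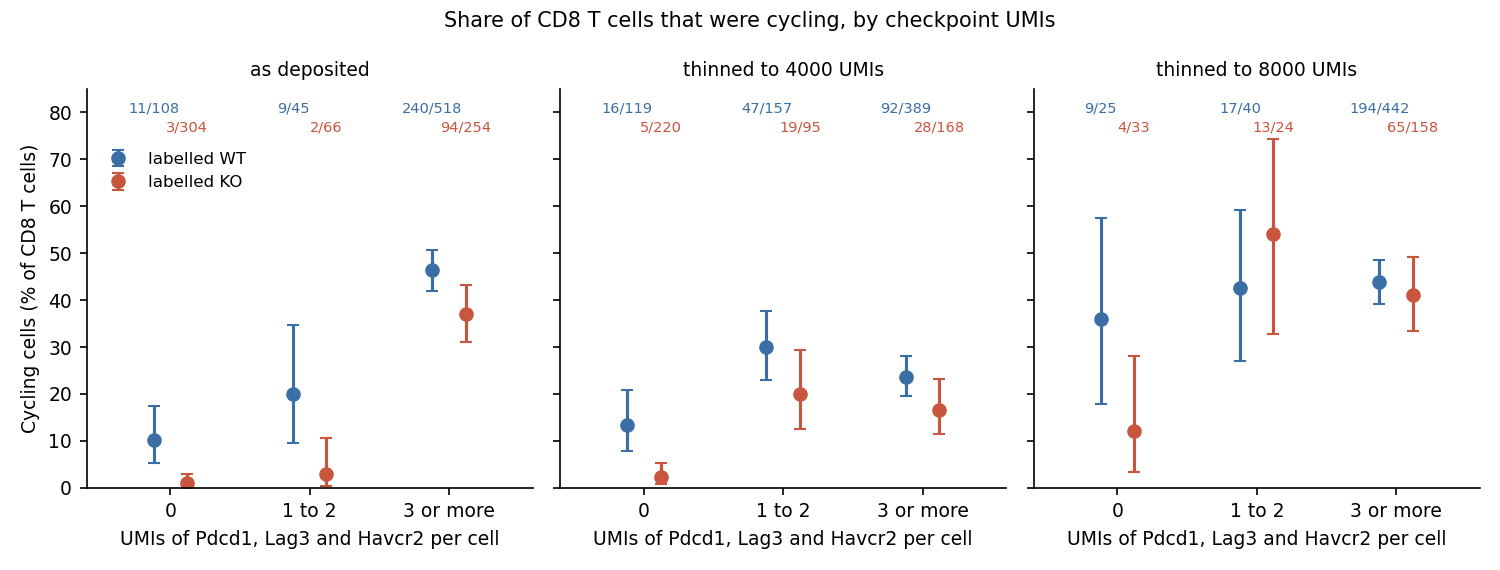
Share of CD8 T cells that were cycling (vertical axis, percent) by the UMIs of *Pdcd1*, *Lag3* and *Havcr2* per cell (horizontal axis), as deposited and with cells thinned to 4000 or 8000 UMIs; points are the 2 libraries, bars exact 95% intervals and the fractions cycling over all CD8 T cells. As deposited, 46.3% and 37.0% of the cells with 3 or more UMIs were cycling, against 10.2% and 0.987% of those with 0.

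Against noncycling CD8 T cells of the same library, the cycling cells were led by genes of mitosis and by histone genes. This is the contrast that selected the cells, so the values are a description with no test. Genes were measured when they had at least 100 UMIs in both groups together in each library, which gave 4127 genes. At least 2-fold higher in cycling cells were 6.32% of them in the library labelled WT and 12.3% in the library labelled KO, and at least 2-fold lower were 1.94% and 4.17%. The G2/M list had 45 of its 66 genes measured, with 43 and 42 of them past 2-fold higher and median log2 ratios of 3.796 and 4.196, beside 0.16 and 0.28 over all genes. Without cells that held RNA of other types the medians were 2.565 and 1.941. The list includes the 3 genes of the rule, which were at 0 in noncycling cells by construction.

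By the smaller ratio of the 2 libraries, the leading genes outside the rule were *Hmmr*, which encodes a spindle-binding protein, and *Nusap1*, a microtubule bundler. *Hmmr* was at 66.2 and 56.9 CPM in cycling cells and 1.41 and 1.18 CPM in noncycling cells, a log2 ratio of 5.34 and 5.38. *Nusap1* was at 158.3 and 157.3 CPM against 3.75 and 2.36 CPM. *Ccna2*, the cyclin of S phase and G2, had log2 ratios of 5.17 and 6.09. *Plk1*, the Polo kinase of mitosis, had 4.75 and 4.59, and *Aurkb*, the Aurora kinase of the passenger complex, 4.40 and 5.21. Further leading genes were *Cdca8*, *Cenpf*, *Cenpe*, *Cdca3*, *Ccnb1*, *Fbxo5*, *Tpx2* and *2810417H13Rik*.

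S phase genes differed less, and every one of the 34 measured was above 0 in both libraries. Their medians were 1.55 and 2.08, with 29 and 31 genes past 2-fold. *Rrm2*, the small subunit of ribonucleotide reductase, was at 212.2 and 189.7 CPM against 17.4 and 4.72 CPM, and *Pcna*, the sliding clamp of DNA polymerases, at 213.9 and 242.6 CPM against 102.3 and 64.45 CPM. Among histone genes, *Hist1h2ap* was at 917.2 and 911.6 CPM against 31.4 and 24.4 CPM and *Hist1h1b* at 82.6 and 76.9 CPM against 2.82 and 1.97 CPM, while *H3f3b*, a histone made outside S phase, had log2 ratios of 0.31 and 0.54. These histone genes belong to families of near-identical copies, so the split of reads among them is uncertain. The nucleotide synthesis list had 10 and 14 of 21 measured genes past 2-fold higher, with medians of 0.98 and 1.13.

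Genes of the naive and memory list were among the lowest. *Klf2*, the transcription factor that keeps T cells quiescent and recirculating, was at 17.2 and 11.5 CPM in cycling cells against 184.4 and 99.4 CPM in noncycling cells, a log2 ratio of −3.42 and −3.09. *Il7r*, the receptor for the survival cytokine IL-7, was at 11.1 and 6.99 CPM against 72.7 and 110.4 CPM. *Bcl2*, which blocks apoptosis, had log2 ratios of −1.93 and −2.58, and *Satb1*, *Pik3ip1*, *Ssh2*, *Socs3*, *Slfn1* and *Ifit3* were also among the lowest genes. In the naive and memory list 9 and 11 of 13 measured genes were past 2-fold lower. When the comparison was limited to noncycling cells with 3 or more checkpoint UMIs (142 and 107 cells), the median of that list was −0.20 and −0.47 in place of −1.72 and −2.58, over the 5 genes still measured. The list of cell cycle inhibitors and quiescence genes had 5 and 8 of 15 measured genes past 2-fold lower and 2 higher in each library, with medians of −0.87 and −1.11. Against checkpoint-expressing noncycling cells, 0 and 1 of 10 measured genes were past 2-fold lower, with medians of −0.20 and −0.60, beside 0.897% and 1.7% of all genes past 2-fold lower and medians of 0.10 and 0.09. *Btg1*, an antiproliferative gene, was at 453.3 and 433.3 CPM against 829.1 and 934.5 CPM, and *Txnip*, which limits glucose uptake, at 31.25 and 21.97 CPM against 108.4 and 142.3 CPM. *Cdkn1a*, which encodes the cyclin-dependent kinase inhibitor p21, was on the other side, at 126.5 and 108.3 CPM against 48.8 and 81.7 CPM.

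The cycle lists had like medians in that comparison. Against checkpoint-expressing noncycling cells, the G2/M median was 3.43 and 3.47, the S phase median 1.52 and 1.81, and the histone median 2.636 and 2.6.

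**Figure D2:**
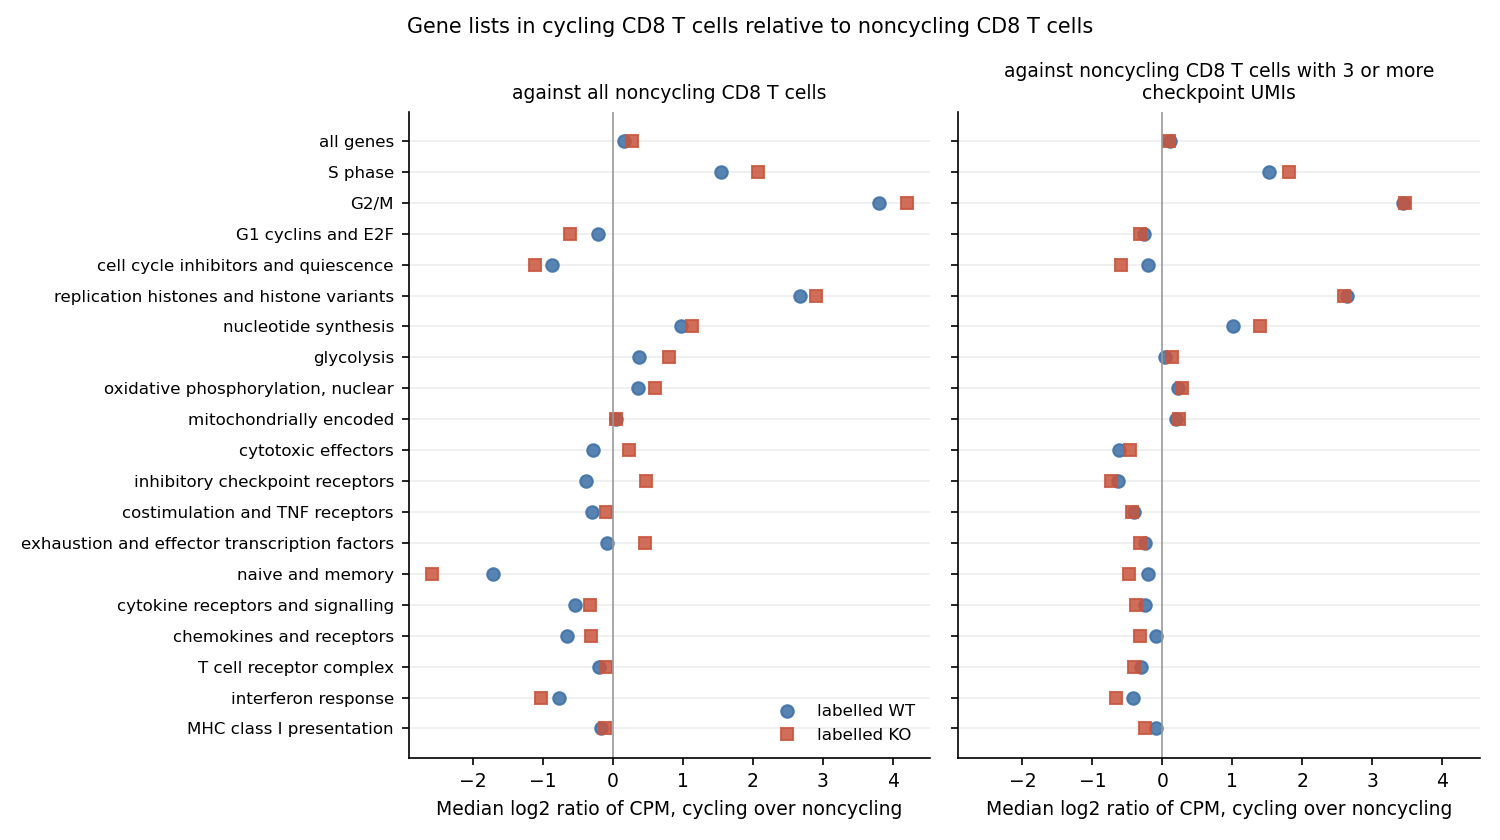
Median log2 ratio of CPM of each gene list in cycling over noncycling CD8 T cells (horizontal axis) for the library labelled WT (circles) and the library labelled KO (squares), against all noncycling cells on the left and against those with 3 or more checkpoint UMIs on the right. The G2/M medians were 3.796 and 4.196 on the left and 3.43 and 3.47 on the right, and the naive and memory medians moved from −1.72 and −2.58 to −0.20 and −0.47.

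Checkpoint and cytotoxic genes stood differently in the libraries when all noncycling cells were the comparison. The checkpoint receptor list, 6 genes measured, had a median log2 ratio of −0.389 in the library labelled WT and 0.475 in the library labelled KO. *Pdcd1* was at 423.4 and 353.5 CPM in cycling cells, against 353.8 and 195.7 CPM in noncycling cells and 501.6 and 508.6 CPM in checkpoint-expressing noncycling cells. *Lag3* was at 286.8 and 308.5 CPM, against 427.4 and 253.5 CPM and 606.2 and 677.8 CPM. Against checkpoint-expressing noncycling cells, the list's medians were −0.64 and −0.73. Those cells were chosen for UMIs of *Pdcd1*, *Lag3* and *Havcr2*, which by itself places these genes higher in them.

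*Gzmb*, the main granzyme of activated killer cells, was at 1336 and 1325 CPM in cycling cells and at 905.5 and 304.9 CPM in noncycling cells. The *Gzmb* level of cycling cells thus differed between the libraries by a log2 ratio of −0.01 (−0.08 to 0.05), while that of noncycling cells differed by −1.57 (−1.69 to −1.45). Among cycling cells, 1 cell labelled KO held 365 *Gzmb* UMIs, or 13.75% of those in that library. Without each library's highest cell the ratio of cycling cells was −0.144, outside their interval, which takes UMIs as independent. *Prf1*, which encodes perforin, was at 72.1 and 55.4 CPM against 99.9 and 21.2 CPM. Glycolysis genes had medians of 0.37 and 0.80 over 16 genes against all noncycling cells, and of 0.04 and 0.14 over 14 genes against checkpoint-expressing noncycling cells, where all genes had 0.10 and 0.09. *Gapdh* was at 3838 and 3799 CPM against 2679 and 1816 CPM, and *Ldha*, which makes lactate, at 2005 and 1939 CPM against 1302 and 854.3 CPM. The 35 nuclear genes of oxidative phosphorylation had medians of 0.36 and 0.60, with 34 and 33 above 0. Over all 4127 genes the medians were 0.16 and 0.28, with 2632 and 2828 above 0. Against checkpoint-expressing noncycling cells the medians of the 35 genes were 0.23 and 0.28, with 28 and 29 above 0. Interferon response genes were lower, with medians of −0.77 and −1.02 and 7 and 11 of 22 measured genes past 2-fold lower. The medians were −0.418 and −0.661 against checkpoint-expressing noncycling cells, and −0.358 and −0.081 without cells that held RNA of other types.

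Within the cycling cells, every thinned cell held both S phase and G2/M UMIs, in varied amounts. With each cell thinned to 11500 UMIs, which left 234 and 91 cells and left out 26 and 8, the 50 S phase genes had medians of 41 UMIs per cell in both libraries, from 3 to 110 and from 11 to 108. The 63 G2/M genes other than those of the rule had medians of 92.5 and 89 UMIs, from 10 to 311 and from 18 to 234. The G2/M sums reached higher in the library labelled WT, with 90th percentiles of 202 and 167 UMIs, while those of the S phase sums were 77 and 78 UMIs. The Spearman correlation of the 2 sums over cells was −0.248 and −0.326, given as a description since cells of 1 library are not replicates and the sums share each cell's fixed total.

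**Figure D3:**
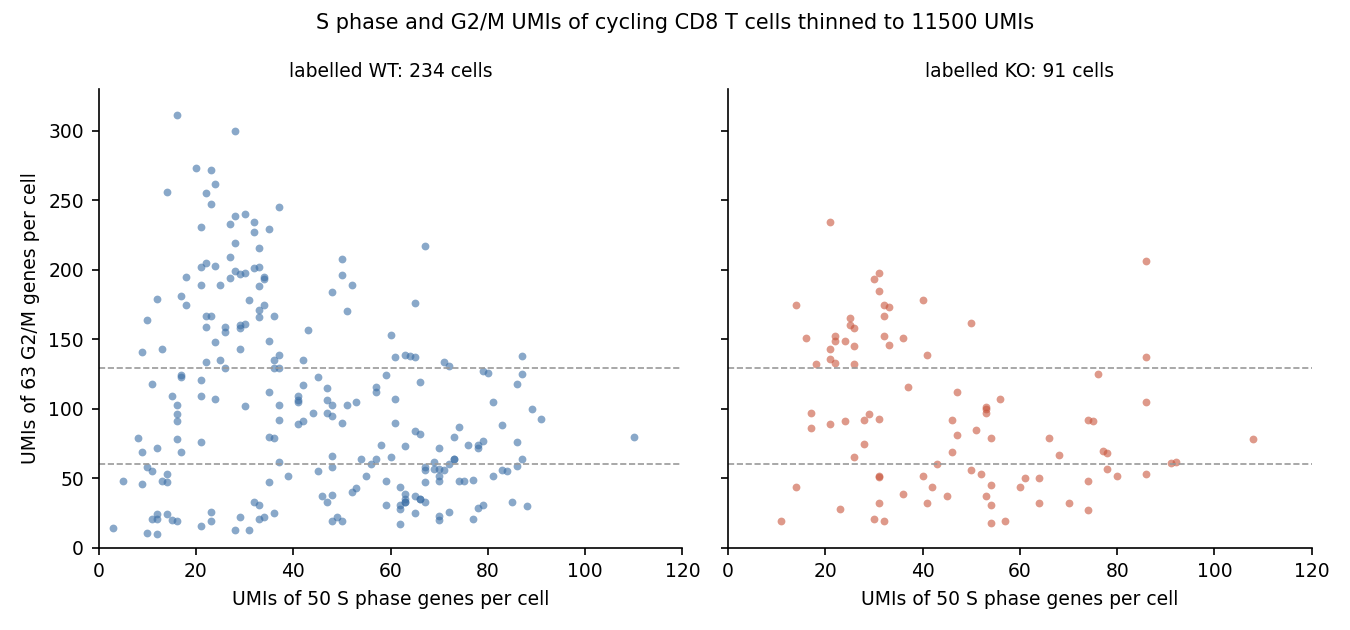
UMIs of 63 G2/M genes (vertical axis) against UMIs of 50 S phase genes (horizontal axis) in each cycling CD8 T cell thinned to 11500 UMIs, 1 point a cell, with dashed lines at 60 and 129 G2/M UMIs that divide all cells into 3 groups of like size. G2/M UMIs reached 311 and 234 with medians of 92.5 and 89, and the Spearman correlation with S phase UMIs was −0.248 and −0.326.

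The cells were divided into 3 groups of like size by G2/M UMIs, with limits at 60 and 129 UMIs and 31 cells within 10 UMIs of the upper limit. In the upper group lay 32.9% of the WT-labelled and 31.9% of the KO-labelled cells. S phase genes summed to 4265 and 4306 CPM in the lower, 4365 and 4642 CPM in the middle and 2917 and 2765 CPM in the upper group. Histone genes went the other way, from 4172 and 4171 CPM through 6803 and 6931 CPM to 8622 and 8276 CPM. The checkpoint list was at 1176, 1056 and 1164 CPM from the lower to the upper group in the library labelled WT and at 1139, 880.8 and 1211 CPM in the library labelled KO. The cytotoxic list was at 7354, 6034 and 5471 CPM from the lower to the upper group in the library labelled WT, and at 6373, 4780 and 6816 CPM in the library labelled KO, with no common order. Macrophage markers were at 640.2, 544.3 and 475.4 CPM and at 931.3, 518.9 and 521.7 CPM over the same groups, and their part was not tested.

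At this depth nearly all cycling cells held *Pdcd1* UMIs and few held *Tcf7*, the transcription factor of stem-like and memory T cells. *Pdcd1* was found in 91.0% (86.61 to 94.36%) and 92.3% (84.79 to 96.85%) of the thinned cells. *Tcf7* was found in 4.70% (2.37 to 8.255%) and 8.79% (3.872 to 16.59%). In macrophages with at least 10 UMIs of the C1q genes and 0 of CD3 (median 11821.5 and 12696 UMIs before thinning), which should lack both, thinned in the same way, *Pdcd1* was found in 4 of 53 and 4 of 50 cells and *Tcf7* in 2 of 53 and 1 of 50. The intervals of the *Tcf7* shares overlapped those of this background (up to 12.98% and 10.65%), so a difference from it was not detectable in these numbers of cells. Over the cells as deposited, 34 and 35 *Tcf7* UMIs lay in 20 and 14 cells, with up to 5 and 8 in a cell. Over all UMIs *Tcf7* was at 6.29 and 17.5 CPM in cycling cells against 49.7 and 109.6 CPM in noncycling cells. *Pdcd1*, *Lag3* and *Havcr2* were found together in 48.7% (42.15 to 55.32%) and 48.4% (37.74 to 59.07%), *Gzmb* and *Prf1* together in 37.6% (31.38 to 44.15%) and 36.3% (26.44 to 47.01%), and *Ifng* in 61.5% (54.98 to 67.8%) and 65.9% (55.25 to 75.55%) of the cells. In the macrophages, *Ifng* was found in 5 of 53 and 2 of 50 cells, *Gzmb* in 7 and 5, *Prf1* in 7 and 0, *Lag3* in 7 and 4, and *Havcr2* in 8 and 6.

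Between the libraries, the cycling cells were close for most genes. Over the 5649 genes with at least 100 UMIs in the cycling cells of both libraries together, the median log2 ratio of KO over WT was −0.001. At least 2-fold higher in the library labelled KO were 19 genes (0.336%) and at least 2-fold lower were 73 (1.29%), and the counting intervals of all 92 were separate. The 50 S phase genes had a median of 0.06, with 0 past 2-fold, and the 62 measured G2/M genes one of −0.07, with 1 past 2-fold in each direction. Nucleotide synthesis (26 genes), glycolysis (17), nuclear oxidative phosphorylation (35), T cell receptor complex (14) and MHC class I genes (15) had 0 past 2-fold and medians from −0.16 to 0.08. In glycolysis 16 genes were below 0, and in nuclear oxidative phosphorylation 26 were above 0. Nucleotide synthesis, T cell receptor complex and MHC class I genes had 12, 7 and 9 below 0. Over all genes 2819 were above and 2830 below 0. Of the genes that selected the cells, whose levels the selection shaped, *Mki67* was at 155.1 and 146.3 CPM, *Top2a* at 360.5 and 403.4 CPM and *Birc5* at 414.5 and 378.9 CPM.

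**Figure D4:**
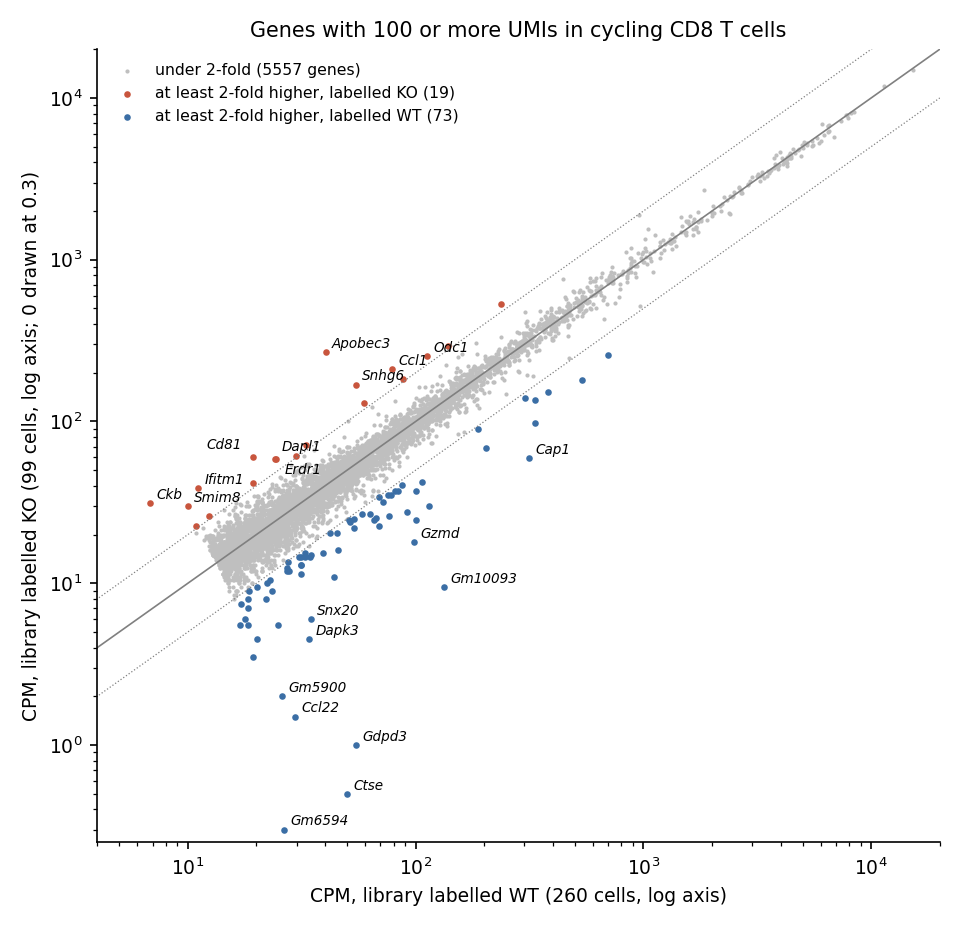
CPM of 5649 genes in the cycling CD8 T cells of the library labelled KO (vertical axis) against the library labelled WT (horizontal axis), both on log scales, with a gene at 0 drawn at the bottom and dotted lines at 2-fold. The 19 genes above and 73 genes below the dotted lines are coloured, and the 10 with the largest ratio in each direction are named.

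The 2 exceptions among the G2/M genes were *Pttg1* and *Hjurp*. *Pttg1*, which encodes securin, the inhibitor of the protease that parts sister chromatids (chromosome 11, 43420250 to 43426251), was at 333.2 (318 to 348.9) and 97.85 (84.63 to 112.6) CPM, a log2 ratio of −1.76 (−1.99 to −1.55). It had a UMI in 236 of 260 and 79 of 99 cells, so it was present in most cells of both libraries. Its ratio in noncycling CD8 T cells was 0.57, on the other side of 0. *Hjurp*, the chaperone that places CENP-A at centromeres, was at 33.1 and 71.4 CPM, a log2 ratio of 1.11 (0.78 to 1.43), with a UMI in 117 and 64 cells.

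Several of the genes lowest in the library labelled KO were nearly absent from its cells. *Ctse*, which encodes the protease cathepsin E (chromosome 1, 131638306 to 131675505), had 270 UMIs in 167 of 260 cells labelled WT and 1 UMI in the 99 cells labelled KO, or 49.9 (44.14 to 56.24) and 0.499 (0.0126 to 2.78) CPM. *Gdpd3*, a lysophospholipase D (chromosome 7, 126766334 to 126775649), had 295 UMIs in 143 cells and 2 UMIs in 2 cells. *Cap1*, which recycles actin (chromosome 4, 122859047 to 122886056), was found in 252 and 61 cells, at 316 and 59.4 CPM, a log2 ratio of −2.41 (−2.69 to −2.14). In noncycling CD8 T cells the log2 ratios of these 3 genes were −4.40, −5.55 and −2.07, on the same side. *Dapk3*, a protein kinase, and *Snx20*, a sorting nexin, had −2.85 and −2.48 in cycling and −3.23 and −2.36 in noncycling cells.

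The pseudogenes *Gm6594*, *Gm10093* and *Gm5900* were also among the 10 lowest. *Gm6594* had 143 UMIs in the library labelled WT and 0 in the library labelled KO, at least 17.65-fold lower at a floor of 3 UMIs over the library's cycling cells (1.498 CPM). *Gm10093* was at 133.3 and 9.49 CPM and *Gm5900* at 25.88 and 1.997 CPM. Processed pseudogenes share sequence with their parent genes, so their reads are uncertain.

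*Apobec3*, a cytidine deaminase that restricts retroviruses (chromosome 15, 79891659 to 79915906), had the largest ratio on the other side. It was at 40.3 (35.13 to 46.03) and 268.1 (245.9 to 291.8) CPM, a log2 ratio of 2.73 (2.504 to 2.967), and was found in 141 of 260 and 94 of 99 cells with medians of 1 and 5 UMIs. Noncycling CD8 T cells had a ratio of 2.17. *Odc1*, the first enzyme of polyamine synthesis, was at 112 and 254.1 CPM (1.18, 1.01 to 1.35) with a UMI in 197 and 83 cells. *Snhg6*, a host gene of small nucleolar RNA, was at 54.5 and 169.2 CPM, *Smim8* at 9.98 and 29.95 CPM and *Erdr1* at 24.4 and 58.4 CPM.

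For other genes a single cell held a large part of the UMIs. Of the 19 genes past 2-fold higher in the library labelled KO, 7 had at least 25% of their UMIs there in 1 cell, and of the 73 lower genes 2 had so in the library labelled WT. For *Ccl22*, a chemokine of dendritic cells and activated T cells, 1 cell labelled WT held 145 of 160 UMIs. For the tetraspanin gene *Cd81*, 1 cell labelled KO held 79 of 120 UMIs, and for *Ifitm1*, an interferon-induced membrane protein gene, 48 of 78. Without each gene's highest cell in each library, a comparison added after the data were seen, the log2 ratio of *Cd81* was 0.23 in place of 1.64, that of *Ifitm1* 0.51 in place of 1.81 and that of *Ccl22* −1.19 in place of −4.09. For *Dapl1*, a gene of naive and memory T cells, it was 0.815 in place of 1.27. For *Ckb*, the brain-type creatine kinase gene, 1 cell held 24 of 63 UMIs and the log2 ratio was 1.60 in place of 2.19. The counts were then 14 genes higher and 87 lower, and 86 of the 92 genes were among them.

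Of the 92 genes, 61 had at least 100 UMIs in noncycling CD8 T cells, where 33 were past 2-fold on the same side and 53 had the same sign. The share past 2-fold was 6 of 14 for the higher and 27 of 47 for the lower genes. Over all 4063 genes measured in noncycling cells, 0.837% were past 2-fold higher and 1.82% lower in the library labelled KO, and 2567 were below 0. Cycling and noncycling cells came from the same 2 libraries, so these values are set side by side and are not independent.

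Cytotoxic genes were close between the libraries for the most abundant members and apart for several others. Of 15 measured genes, 0 were past 2-fold higher and 4 lower in the library labelled KO (26.7%, beside 1.29% of all genes), a median of −0.16 beside −0.001 over all genes. In noncycling CD8 T cells 6 of 15 were past 2-fold lower, with a median of −0.75, and in checkpoint-expressing noncycling cells 5 of 14, with a median of −0.07, beside 1.82% and 1.3% of all genes past 2-fold lower and medians of −0.11 and 0.007. *Gzmb* is given above, and *Nkg7*, a granule protein gene, was at 2389 and 2467 CPM. *Ifng*, which encodes interferon-γ, was at 237.8 and 199.7 CPM, a log2 ratio of −0.25. For *Ifng*, 1 cell labelled WT held 286 UMIs (22.24% of those in that library), and without the highest cells the ratio was −0.015. The 4 lower genes were *Gzmd* (98.5 and 17.97 CPM, log2 ratio −2.44), *Lamp1* (67.1 and 25.5 CPM, −1.39), *Gzma* (53.8 and 21.97 CPM, −1.28) and *Gzme* (75.8 and 34.95 CPM, −1.11). *Gzmd* and *Gzme* lie close together on chromosome 14 and are members of a family of similar genes, so reads may be split between them. They were found in few cells, *Gzmd* in 32 of 260 and 3 of 99 and *Gzme* in 31 and 3, and 1 cell labelled WT held 148 of the 291 UMIs of *Gzma*. Without the highest cells the log2 ratios were −3.22 for *Gzmd*, −1.85 for *Gzme* and −1.11 for *Gzma*. *Gzmf*, a measured gene of the list, had a log2 ratio of −0.12, and −2.94 without the highest cells. For it, 1 cell labelled KO held 339 UMIs, or 88.74% of those in that library. *Lamp1*, a lysosome membrane gene that marks degranulation, was found in 166 and 37 cells.

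Chemokine genes included values on both sides. *Xcl1*, the ligand that draws cross-presenting dendritic cells, was at 237.4 and 534.2 CPM, a log2 ratio of 1.17 (1.05 to 1.29). *Ccl3* was at 959 and 1893 CPM (0.98, 0.92 to 1.04), *Ccl4* at 1051 and 1553 CPM (0.56) and *Ccl5* at 1845 and 2710 CPM (0.555), all chemokines that draw other leukocytes. The list had 15 genes measured, a median of 0.10 and 1 gene past 2-fold in each direction, *Xcl1* and *Cxcr3*. *Ccl1*, a ligand of CCR8 that is outside the list, was at 78.8 and 209.7 CPM (1.41). These RNAs were uneven over cells. For *Xcl1*, 1 cell held 120 of 1284 UMIs labelled WT and 221 of 1070 labelled KO, and without the highest cells its log2 ratio was 0.987, under 2-fold. For *Ccl1*, 1 cell labelled KO held 151 of 420 UMIs, and the ratio without the highest cells was 1.08. For *Ccl3*, 1 cell labelled WT held 1117 of 5187 UMIs and 1 labelled KO 768 of 3791, and the intervals, which take UMIs as independent, do not cover that spread. *Cxcr3*, the receptor that guides effector cells to inflamed tissue, was at 31.4 and 14.5 CPM (−1.10, −1.74 to −0.54). In noncycling CD8 T cells the list had a median of 0.42 with 11 of 16 genes above 0, and its summed level was 8982 and 11570 CPM, against 4801 and 7404 CPM in cycling cells. Of its genes, *Xcl1* and *Cxcr3* were at −0.94 and 0.43 there.

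**Figure D5:**
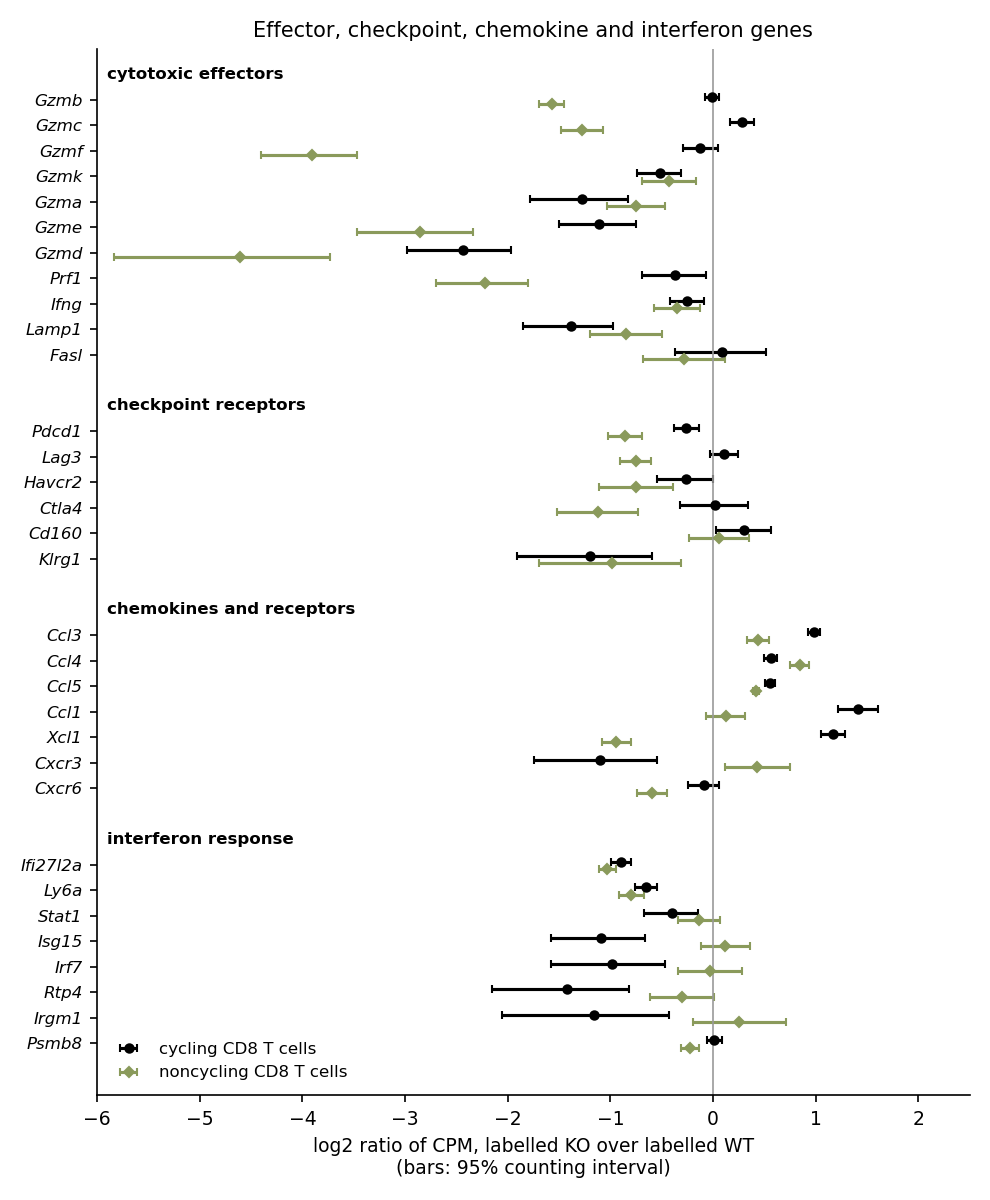
Log2 ratio of CPM, library labelled KO over library labelled WT, for effector, checkpoint, chemokine and interferon response genes in cycling (circles) and noncycling (diamonds) CD8 T cells, with 95% counting intervals as bars. In cycling cells *Gzmb* was at −0.01 and *Gzmd* at −2.44, *Xcl1* at 1.17 and *Cxcr3* at −1.10, and *Isg15* at −1.09.

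Interferon response genes were lower in the cycling cells of the library labelled KO. Of 21 measured genes, 19 were below 0, 3 were past 2-fold lower (14.3%, beside 1.29% of all genes) and 0 higher, with a median of −0.40 beside −0.001 over all genes. *Ifi27l2a* was at 967.7 and 519.2 CPM (−0.90), and *Ly6a*, which encodes Sca-1, at 674.3 and 429.3 CPM (−0.65). *Isg15*, an interferon-induced ubiquitin-like protein gene, was at 51.6 and 24.0 CPM (−1.09, −1.58 to −0.66), *Rtp4* at 31.4 and 11.5 CPM (−1.43) and *Irgm1* at 18.3 and 7.99 CPM (−1.16). *Irf7*, a transcription factor of the response, was at 34.0 and 17.0 CPM (−0.99). The immunoproteasome gene *Psmb8* (1024 and 1033 CPM) and *Tap1*, the peptide transporter (171.6 and 172.2 CPM), which are counted in this list, had nearly equal levels. In noncycling CD8 T cells 19 of 25 measured genes were below 0 and 3 were past 2-fold lower (12% beside 1.82% of all genes), with a median of −0.19 beside −0.11 over all genes. In the 40 and 13 cycling cells with fewer than 3 UMIs of every other-cell set the median of the genes still measured was 0.07.

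Checkpoint receptors had a median log2 ratio of 0.02 between the libraries over 11 genes, which other settings put between −0.554 and 0.02. *Pdcd1* had −0.26 (−0.38 to −0.14), *Lag3* 0.11, *Havcr2* −0.27 and *Ctla4* 0.02. *Klrg1*, a receptor of terminal effector cells, was past 2-fold lower, at 27.9 and 11.98 CPM (−1.20), with a UMI in 59 and 15 cells. Of 15 measured transcription factor genes of effector and exhausted cells 0 were past 2-fold. *Tox*, which drives the exhausted state, was at 163.4 and 156.8 CPM, *Ikzf2*, which encodes Helios, at 64.5 and 122.3 CPM (0.92, 0.68 to 1.16) and the early activation gene *Nr4a1* at 20.3 and 34.45 CPM (0.76). In the naive and memory list, with 9 genes measured and a median of −0.45 (−1.645 without cells that held RNA of other types, and −0.136 by the mean over cells), *Ly6c2* was at 471.6 and 248.1 CPM (−0.925) and *Bcl2* at 80.1 and 57.9 CPM (−0.46), while *Dapl1* was at 24.2 and 58.4 CPM.

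Cycling macrophages offered a comparison over cell types for the cycle genes. With 10 or more C1q UMIs (*C1qa*, *C1qb* and *C1qc*), 0 of CD3 and at least 3 of *Mki67*, *Top2a* and *Birc5*, they were 10 and 15 cells with 220619 and 317210 UMIs. Over 43 G2/M genes the median log2 ratio of cycling CD8 T cells to them was 0.17 and 0.33, beside 0.19 and 0.10 over all 2716 genes, and over 29 S phase genes it was 1.06 and 0.57. The 14 T cell receptor genes had medians of 4.85 and 5.08 and 10 macrophage markers −6.08 and −5.75, which the choice of both groups fixed in part.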

How the data were processed

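scRNAseq of TIIs gave 1 library per genotype, each of 10 tumors combined. The authors made them with the 10X Genomics Chromium 3′ V2 kit, aligned and aggregated reads with Cell Ranger (mm10 in the submitters' processing notes, version not given in the sources used here) and required 300 UMIs and 100 genes of each cell, with no more than 5% of reads mitochondrial. Although its note calls it raw counts, the deposited table holds values on a natural log scale, ln(1 + UMIs per 10000 of the cell), which the authors made with Seurat. The smallest value of each cell is 1 UMI, and all values of 5022 of 5022 cells came back as whole UMIs within 0.01. The plan had assumed UMIs, and the recovered UMIs were used.

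UMIs were summed over the cells of a class and library and given as CPM. Ratios add 0.5 UMI to each sum, and genes needed 100 UMIs over the classes compared. Intervals are exact Poisson or Clopper-Pearson 95% intervals, which cover counting error only. Cells are not replicates, so the rank test across cells that the study used was not run, and no p-value was computed. Cells were thinned to 4000, 8000 or 11500 UMIs at random (seed 1) where shares were compared. Scripts were tested on simulated data. No doublet caller was run and the methods describe no removal of doublets, so any doublets were kept. Promoter windows were read from RefSeq (GRCm38.p6) and gene coordinates from an annotation of GRCm38, the assembly of mm10.

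Members and the 27 gene lists (11 of their genes are not in the table) were chosen with earlier results of these data known. Genes were named by a fixed rule: the genes of the selection, up to 6 of each list by level and by ratio, the 10 with the largest ratio between libraries in each direction, the 15 highest and 10 lowest against noncycling cells, and *Maoa*. 1 of these genes is not reported here. Alternatives covered depth, the criteria, the minimum UMIs, the fold, scaling, the weight of cells, the mix of cycle phases and RNA of other cells. Python 3.11.15, numpy 2.4.6, scipy 1.17.1 and matplotlib 3.10.9 were used.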

Additional observations from a re-analysis of the deposited data

Results flagged for a closer look

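The inhibitory checkpoint receptor list stood on different sides of 0 in the libraries when cycling were compared with noncycling CD8 T cells. Its median log2 ratio was −0.389 in the library labelled WT and 0.475 in the library labelled KO, over 6 genes in each, and the difference was not tested. Against noncycling cells with 3 or more checkpoint UMIs the medians were −0.636 and −0.733, but those cells were chosen for UMIs of 3 genes of the list, which places it lower in cycling cells. Without cells that held RNA of other types the median labelled KO was −0.241.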

How the results depend on the processing

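The share of CD8 T cells that were cycling (38.75% and 15.9% in the libraries labelled WT and KO) was 23.3% and 10.8% at 4000 UMIs per cell, 43.4% and 38.1% at 8000 UMIs, 44.3% and 19.2% with at least 2 UMIs of the cycling genes, 31.7% labelled WT with at least 5, 28.17% and 12.02% when *Cdk1*, *Ccna2* and *Tpx2* marked cycling, and 16.3% and 3.79% without cells that held RNA of other types. It was 20.9% and 7.76% of CD3 cells and 10.9% and 3.76% of all cells. In cells with 3 or more checkpoint UMIs it was 23.65% and 16.7% at 4000 UMIs. The genes past 2-fold between the libraries (19 higher and 73 lower) were 46 and 130 with at least 50 UMIs, 45 lower with at least 200, 131 and 229 at 1.5-fold, 2 and 15 without cells with RNA of other types, where 961 genes were measured, and 4 and 31 in cells with 0 UMIs of the 5 myeloid genes, where 1840 were. Of the 92 genes, 48 were also past 2-fold at 11500 UMIs per cell, where 3820 genes were measured, and 84 by the mean over cells, where 5649 were. The median between libraries was −0.372 for cytotoxic genes in cells with 0 myeloid UMIs, and −0.554 for checkpoint and 0.071 for interferon response genes (0.017 and −0.396 as reported) without cells with RNA of other types. Cycling against noncycling, leaving out cells with RNA of other types gave 2.565 and 1.941 for G2/M, 0.007 for cytotoxic genes labelled WT, −0.241 for checkpoint genes labelled KO, and −0.358 and −0.081 for interferon response genes. With checkpoint-expressing noncycling cells the medians were −0.621 and −0.468 for cytotoxic genes, −0.733 for checkpoint genes labelled KO, −0.202 and −0.472 for naive and memory genes, and −0.418 for interferon response genes labelled WT. The checkpoint (0.475) and cytotoxic (0.23) medians labelled KO and the cytotoxic median labelled WT (−0.291) thus changed sign. The causes were not tested. The filter on RNA of other types takes a UMI count at any depth, so deep cells, such as the cycling cells, reach it more readily. Of 133 values of single genes under alternatives, 119 moved by less than their interval. The 8000 UMI depth, the cells with 0 myeloid UMIs and the removal of the highest cell were added after seeing the data. No paired analysis was possible because each genotype has 1 library and no result comes from a test.

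With 1 library per genotype the spread between mice cannot be seen. The cycling cells labelled KO held 2003049 UMIs in 99 cells, so a gene at 1 CPM there rests on about 2 UMIs, and low genes are less firm in that library.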
